A study of Mus musculus with 48 samples.

Results

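The genes described here encode the proteins of the mitochondrial respiratory chain, the enzymes that make its electron carrier coenzyme Q, and the proteins of the mitochondrial ribosome. They were chosen by gene symbol, from the probe sets that name a single gene, and the family itself was proposed with the treated to vehicle ratios of these same arrays in view. The rule took symbols that begin with Nduf, Uqc, Atp5, Coq, Mrpl or Mrps and a digit where one follows, with Sdha to Sdhd and the numbered Cox subunits. It found 141 genes on 184 probe sets, of 8252 genes measured on 10855 single-gene probe sets and 12488 probe sets in all. Complex I contributed 31 genes, complex II 4, complex III 10, complex IV 15, complex V 14, coenzyme Q synthesis 6 and the mitochondrial ribosome 61. Assembly factors whose symbols fit the rule, such as Ndufaf1 and Uqcc3, are counted with their complex.

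The respiratory chain passes electrons from NADH and succinate through complexes I and II, coenzyme Q, complex III and cytochrome c to oxygen at complex IV, and complex V uses the resulting proton gradient to make ATP. Most of its subunits are encoded in the nucleus and imported. A small core set is encoded in mitochondrial DNA and made on the mitochondrial ribosome, whose proteins are all nuclear. Mitochondrial DNA genes were looked for under 28 symbols, which include alternative names of the same genes. None of the 28 symbols was named by a probe set, so the values below concern nuclear genes alone.

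Mouse embryos gave the right forelimb bud, whose ectoderm and mesoderm were parted with trypsin and hybridised separately to Affymetrix arrays. Pregnant mice received an intraperitoneal injection on gestation day 9.5. The cadmium arm used cadmium sulfate at 4 mg/kg with phosphate-buffered saline (PBS) as vehicle, and the acetazolamide arm used acetazolamide, a carbonic anhydrase inhibitor, at 400 mg/kg with vegetable oil as vehicle. Buds were taken 3 h or 12 h later, giving 2 tissues, 2 times and 8 comparisons of 3 treated with 3 vehicle arrays, 48 arrays in 16 groups. The labels give no strain. One label says that tissue of several litters was combined to obtain RNA and another calls the hybridised extracts individual and not pooled, so whether the 3 arrays of a group are separate pools of litters is not clear and their spread may be partly technical. In whole tissue, fewer cells of a type and less RNA per cell cannot be told apart.

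Each deposited value is a ratio with vehicle as denominator. PBS and oil arrays therefore lie around 0 in log2 by construction, array 3 of each is 0 for every gene, and no expression level can be read. A change below is the treated minus vehicle effect in log2 that limma estimated from all 48 arrays, with its SE and n = 3 arrays in each group. A gene is called where its Benjamini-Hochberg adjusted p over all 8252 genes is under 0.05, and "fell" is used only of called genes. Because these same contrasts were in view when the family was proposed, the counts of calls are given as a description beside the share of all genes called, and nothing is read from them. The 95% interval of a typical gene reached 0.21 to either side in 12 h cadmium mesoderm, 0.42 in 12 h cadmium ectoderm and between those in the other comparisons (medians over genes).

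At 12 h after cadmium, 6 of the 141 genes fell in limb mesoderm and 0 rose. They were spread over 4 classes: the complex III genes Uqcc3 and Uqcrc2, the small ribosomal subunit genes Mrps2 and Mrps31, the coenzyme Q gene Coq3 and the complex I assembly gene Ndufaf1. The 6 are 4.26% of the family, where 2.28% of all genes were called in either direction in this comparison and 1.22% were called lower. The other 135 genes, among them all measured genes of complexes II, IV and V, were not called. The calls depend on how the spread is estimated. With 1 spread shared by all arrays (no weights) 2 of the 6, Mrps2 and Uqcc3, were called, beside 22 of all 8252 genes. With only the 6 arrays of this comparison 0 were, and 0 of all genes. With an array left out, the number of family genes called ran from 4 (without PBS or cadmium array 3) to 9 (without cadmium array 1). The number of all genes called in such fits is not given, so these counts cannot be set against it.

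Uqcc3, an assembly factor needed to build complex III, had log2 ratios of -0.95, -1.60 and -1.31 in the 3 cadmium mesoderm arrays and -0.10, 0.09 and 0 in the PBS arrays at 12 h. The groups did not overlap, and the fall was 1.29 ± 0.19, or 2.44-fold. Groups without overlap, in either direction, were found for 19.3% of all genes in this comparison. Mrps2, a protein of the small ribosomal subunit, had -0.54, -0.84 and -1.45 in the cadmium arrays and -0.15, 0.13 and 0 in the PBS arrays. All 3 cadmium arrays were below all PBS arrays, with array 3 the lowest, and the fall was 0.94 ± 0.15, or 1.92-fold. Without the third cadmium array it was 0.68, the smallest value of the leave-one-out fits.

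Coq3, a methyltransferase of coenzyme Q synthesis, had -0.83, -1.20 and -0.66 in the cadmium mesoderm arrays and -0.09, 0.08 and 0 in the PBS arrays. Its fall was 0.90 ± 0.18, or 1.87-fold, with no overlap of the groups. Uqcrc2, a core subunit of complex III, had -0.66, -0.61 and -0.88 against -0.11, 0.10 and 0. The 3 cadmium arrays lay close together and below the PBS arrays, and the fall was 0.71 ± 0.14.

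Mrps31, also of the small ribosomal subunit, had -0.84, -0.44 and -0.66 in the cadmium mesoderm arrays and -0.09, 0.09 and 0 in the PBS arrays, a fall of 0.65 ± 0.15. Ndufaf1, an assembly factor of complex I, had -0.72, -0.74 and -0.48 against -0.21, 0.18 and 0, a fall of 0.64 ± 0.12. Neither gene's groups overlapped. Ndufaf1 was read by 2 probe sets, which moved by -0.87 and -0.41, and the other 5 genes by 1 each.

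**Figure D1:**
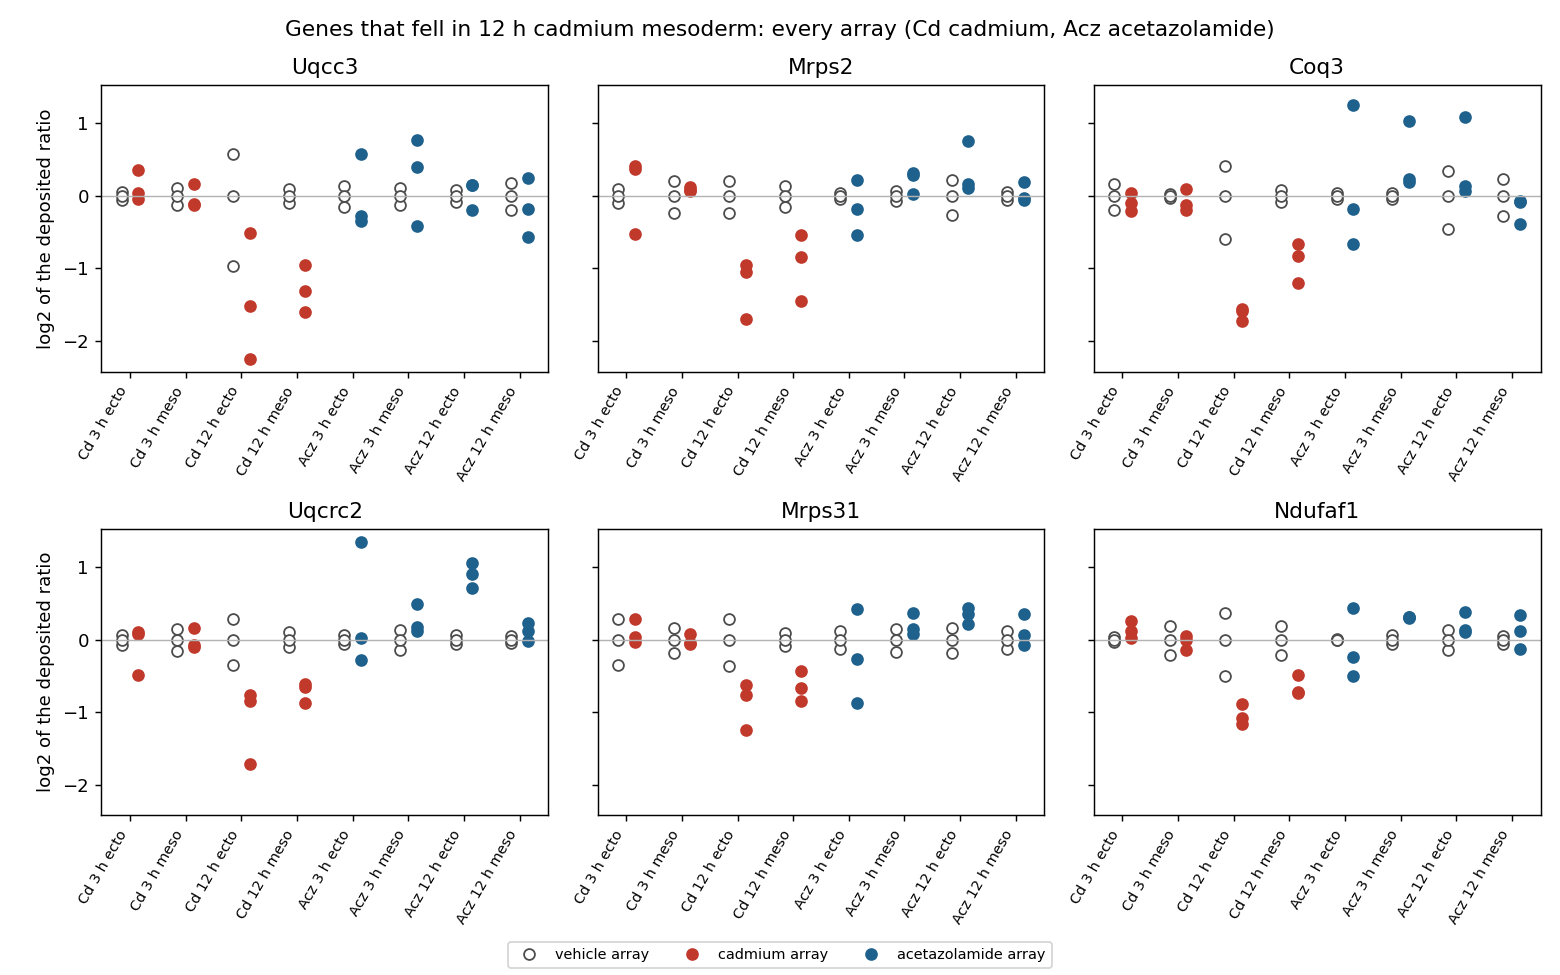
Log2 of the deposited ratio (y axis) in every array for the 6 genes that fell in 12 h cadmium mesoderm, by comparison (x axis; Cd is cadmium, Acz acetazolamide). Each open point is a vehicle array, each red point a cadmium array and each blue point an acetazolamide array, 3 of each per comparison. The cadmium points lie below the vehicle points in both tissues at 12 h, apart from Uqcc3 in ectoderm, where a cadmium array at -0.51 lies above a PBS array at -0.97.

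In 12 h cadmium ectoderm the same 6 genes held ranks 1, 2, 3, 4, 5 and 7 from the lowest of the 141, and none was called. Here 0 of 141 genes passed, where 0.0242% of all genes did (2 of 8252). Coq3 was the lowest, with -1.56, -1.58 and -1.72 in the cadmium arrays and -0.59, 0.42 and 0 in the PBS arrays, a change of -1.56 ± 0.36. Uqcc3 followed at -1.29 ± 0.36, Mrps2 at -1.22 ± 0.29, Uqcrc2 at -1.08 ± 0.28, Ndufaf1 at -0.998 ± 0.23 and Mrps31 at -0.86 ± 0.29. The cadmium and PBS arrays did not overlap for 5 of the 6 and overlapped for Uqcc3. In this comparison they did not overlap for 8.51% of the family and 10% of all genes, in either direction. Each estimate was at least as far below 0 as in mesoderm, while its SE was about 2 times as large for each gene, and the differences between tissues ran from -0.01 for Uqcc3 (95% interval -0.85 to 0.83) to -0.66 for Coq3 (-1.49 to 0.16). None of the 141 was called in that difference, nor was any gene of the array (0%). With 1 spread shared by all arrays the calls turned round, for the family and over all genes. In ectoderm 7 family genes, all 6 and Ndufs4, were called, beside 89 of all 8252 genes. In mesoderm 2 were, beside 22 of all genes. Without PBS array 1 ectoderm also had 7, all 6 and Mrps25, with no count over all genes given for that fit. The Uqcc3 value in ectoderm ran from -0.74 without PBS array 2 to -1.69 without PBS or cadmium array 3.

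The gene at rank 6 in ectoderm was Ndufs1, the largest subunit of complex I and an iron-sulfur protein, at -0.88 ± 0.40. Its cadmium arrays read -0.28, -0.57 and -1.78, so the value rested mainly on array 3, and in mesoderm its change was -0.20 ± 0.21. Just outside the called genes in mesoderm were Uqcrb, a small complex III subunit, at -0.65 ± 0.22 and Mrps10, a small ribosomal subunit protein, at -0.51 ± 0.14. Mrps25 of the same subunit stood at -0.44 ± 0.15 in mesoderm and -0.81 ± 0.29 in ectoderm.

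At 3 h after cadmium the 6 genes lay near the vehicle arrays. In 3 h cadmium mesoderm the 6 genes changed by between -0.07 (Coq3) and 0.10 (Mrps2), and in 3 h cadmium ectoderm by between -0.10 (Uqcrc2) and 0.13 (Ndufaf1). None of the 141 was called in either comparison, and neither was any of the 8252 genes (0% in both). The difference between 12 h and 3 h in cadmium mesoderm was -1.27 ± 0.27 for Uqcc3 and -1.04 ± 0.21 for Mrps2, and these 2 were called, 1.42% of the family beside 0.46% of all genes. For the other 4 the same difference ran from -0.83 ± 0.27 for Coq3 to -0.62 ± 0.17 for Ndufaf1, without a call. In ectoderm the differences between times were between -1.48 and -0.97, with 0 of 141 called beside 0.0121% of all genes.

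**Figure D2:**
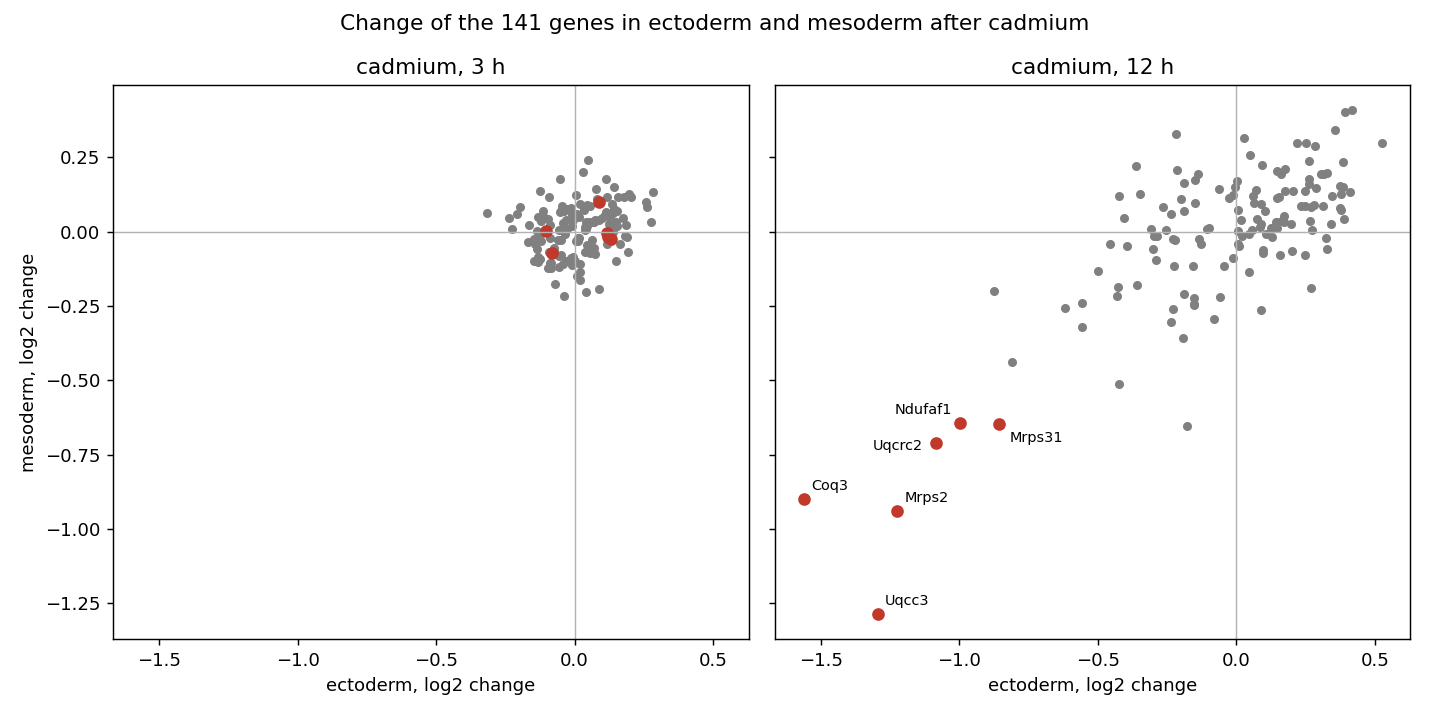
Log2 change after cadmium of the 141 genes in ectoderm (x axis) and in mesoderm (y axis), at 3 h (left) and 12 h (right), with 1 point per gene. Red points are the 6 genes that fell in 12 h mesoderm: they lie near 0 at 3 h and in the lower left corner at 12 h.

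Across the 141 genes, the 12 h cadmium changes of ectoderm and mesoderm had a Pearson r of 0.76 and a Spearman rho of 0.57, beside 0.57 and 0.49 over all 8252 genes. Without the 6 called genes r was 0.55 over 135 genes. At 3 h after cadmium r was 0.24, beside 0.39 over all genes. After acetazolamide it was 0.61 beside 0.52 at 3 h, and 0.18 beside 0.18 at 12 h. The points are genes of the same arrays and are not independent, and the tissues of a time may come from the same buds.

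After acetazolamide the 6 genes stood mostly above 0 at 12 h in ectoderm, and none was called. Uqcrc2 had 0.72, 0.91 and 1.06 in the acetazolamide arrays and -0.06, 0.06 and 0 in the oil arrays, a change of 0.90 ± 0.24 with no overlap, the highest of the family in that comparison. Coq3 was at 0.47 ± 0.31, Mrps2 at 0.36 ± 0.25, Mrps31 at 0.34 ± 0.25, Ndufaf1 at 0.21 ± 0.19 and Uqcc3 at 0.04 ± 0.31. Of the 141 genes 0 were called here, as were 0% of all genes. In 12 h acetazolamide mesoderm the 6 lay between -0.17 (Coq3) and 0.12 (Mrps31). At 3 h in acetazolamide mesoderm all 6 were above 0, from 0.20 (Mrps31) to 0.48 (Coq3). In 3 h acetazolamide ectoderm they ran from -0.24 (Mrps31) to 0.36 (Uqcrc2). None was called at 3 h, where 0.0364% of all genes were in mesoderm and 0.0242% in ectoderm.

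The 12 h ectoderm difference between the agents, cadmium minus acetazolamide, was -1.98 ± 0.37 for Uqcrc2 and -2.03 ± 0.47 for Coq3, with intervals of -2.74 to -1.22 and -3.00 to -1.07. Neither was called, and 0% of all genes were. In 12 h mesoderm that difference ran from -1.13 for Uqcc3 to -0.73 for Coq3 over the 6, with 0 of 141 called beside 0.0121% of all genes. At 3 h the agents' difference was called for 0 members in ectoderm, where 0.0121% of all genes were called, and for 0 in mesoderm (0%).

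The start of each gene was read in RefSeq's promoter table for mouse build GRCm38.p6, which holds 250 bases before and 50 after the start, for 120 of the 141 genes. Uqcrc2 was not among them. Nuclear respiratory factor 1 (NRF1), GABP of the ETS family (also called NRF2) and YY1 are transcription factors known to act on respiratory chain promoters, so exact matches on either strand were counted. The letters searched were GCGCATGC for the NRF1 core and AAGATGGC for YY1. For the ETS and GABP core they were CCGGAAG. The NF-Y box, searched as CCAAT, and the TATA box served as motifs of general promoters. No motif searched contains another. The counts cover all 300 bases, of which the 130 directly before the start are printed for some genes. These are the 3 genes that fell most, Ndufaf1, and the 2 genes with the highest change in 12 h cadmium mesoderm, Ndufa6 and Atp5e. Capitals mark a motif match on either strand.

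Uqcc3, chr19:8880934-8881063, minus strand: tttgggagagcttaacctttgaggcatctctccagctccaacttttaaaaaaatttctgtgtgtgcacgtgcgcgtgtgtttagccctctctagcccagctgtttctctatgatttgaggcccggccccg
Mrps2, chr2:28467936-28468065, plus strand: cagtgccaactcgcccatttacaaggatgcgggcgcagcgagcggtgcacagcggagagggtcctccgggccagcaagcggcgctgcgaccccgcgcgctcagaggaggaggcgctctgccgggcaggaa
Coq3, chr4:21879516-21879645, plus strand: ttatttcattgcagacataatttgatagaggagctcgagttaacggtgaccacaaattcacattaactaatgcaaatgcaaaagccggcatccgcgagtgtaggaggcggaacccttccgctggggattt
Ndufaf1, chr2:119662835-119662964, minus strand: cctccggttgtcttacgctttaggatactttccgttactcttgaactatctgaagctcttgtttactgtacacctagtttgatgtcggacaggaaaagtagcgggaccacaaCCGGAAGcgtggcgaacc
Ndufa6, chr15:82354292-82354421, minus strand: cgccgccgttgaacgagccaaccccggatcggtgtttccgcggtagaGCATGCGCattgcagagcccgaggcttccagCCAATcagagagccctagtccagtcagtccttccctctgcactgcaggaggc
Atp5e, chr2:174464102-174464231, minus strand: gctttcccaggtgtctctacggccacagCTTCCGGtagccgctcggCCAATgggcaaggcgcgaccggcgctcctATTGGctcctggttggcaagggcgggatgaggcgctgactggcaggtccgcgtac

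In these stretches Ndufaf1 holds an ETS core at -18, Atp5e an ETS core at -102 with CCAAT at -84 and -55, and Ndufa6 an NRF1 core at -83 with CCAAT at -52, counted from the start to the first base of the match. The letters searched do not occur in the stretches of Uqcc3, Mrps2 and Coq3. In the full 300 bases Uqcc3 and Ndufaf1 also hold CCAAT, and Mrps2 and Coq3 hold none of the motifs. Mrps31, whose stretch is not printed, holds CCAAT at -34. Of the family's 120 promoters, 11.7% held the NRF1 core, 27.5% the ETS core and 15.8% the YY1 motif, beside 4.76%, 15.7% and 4.18% of the 6573 measured genes with a promoter and 2.8%, 9.12% and 2.88% of all 27025 promoters. At least 1 of these 3 motifs stood in 47.5% of the family, 22.5% of measured genes and 13.8% of all promoters. CCAAT was held by 41.7%, 38.3% and 37.9%, and TATAAA, the TATA box, by 8.33%, 10.4% and 14.2%. A match describes letters and is not evidence that a factor bound.

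**Figure D3:**
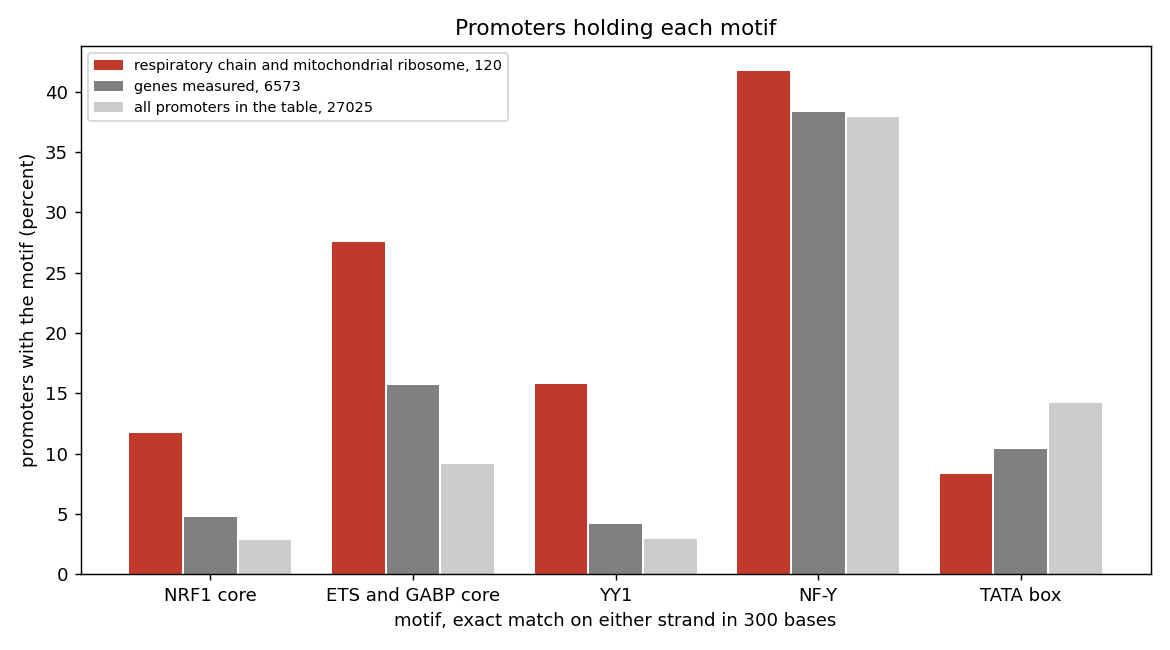
Percent of promoters (y axis) with an exact match to each motif (x axis) in the 300 bases around the start, for 120 genes of the family (red), 6573 measured genes (dark grey) and all 27025 promoters of the table (light grey). The red bars exceed the grey ones for NRF1, ETS and YY1 and lie near them for NF-Y.

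Grouped by motif, the 14 genes with the NRF1 core had a median change of 0.13 in 12 h cadmium mesoderm, beside 0.03 for the 106 without it. For the 33 with the ETS core the median was 0.08, and for the 87 without it 0.03. The 19 genes with the YY1 motif and the 101 without it had the same median of 0.03. The medians with and without in 12 h cadmium ectoderm were 0.17 and 0.02 for the NRF1 core, 0.17 and 0.02 for YY1 and -0.003 and 0.06 for the ETS core. In 12 h acetazolamide ectoderm they were 0.08 and 0.05, -0.03 and 0.07, and 0.07 and 0.05. In 12 h acetazolamide mesoderm they were -0.10 and -0.07, -0.11 and -0.07, and -0.14 and -0.07. None of these differences was tested.

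By class, complex IV had the highest share of genes above 0 after 12 h of cadmium in mesoderm. There 14 of its 15 genes had a change above 0, and none was called. The median was 0.12, where the median of all genes was 0.01 and 54.4% of all genes lay above 0. By array the class median was 0.01, 0.10 and 0.20 after cadmium and -0.02, 0.02 and 0 in the PBS arrays. Cadmium array 1 thus lay inside the vehicle range and array 3 was the highest. Cox7a2, the widely expressed form of a small subunit, had 0.20, 0.13 and 0.66 in the cadmium arrays and -0.02, 0.02 and 0 in the PBS arrays, a change of 0.33 ± 0.16. Cox7a2l, which helps join complexes III and IV, stood at 0.24 ± 0.12, and Cox4i1, the widely expressed form of subunit 4, at 0.16 ± 0.09. Cox6b1 was the 1 gene below 0, at -0.06 ± 0.14.

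No tissue form of complex IV was called in any comparison. Cox6a2, Cox7a1 and Cox8b are the heart and muscle forms, and their changes over the 8 comparisons ran from -0.17 to 0.07, -0.19 to 0.17 and -0.13 to 0.13. The widely expressed Cox6a1 ran from -0.07 to 0.38 and Cox8a from -0.19 to 0.15. Cox6b2, the testis form, stayed between -0.03 and 0.14. The ratios keep no level, so which form was the more abundant in the limb bud cannot be said. Of the c subunit genes of complex V, Atp5g1 ran from -0.22 to 0.11 and Atp5g2 from -0.12 to 0.18.

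In complex V, 11 of 14 genes were above 0 in 12 h cadmium mesoderm, with a median of 0.10. Atp5e, which encodes the epsilon subunit of the catalytic head, was highest at 0.40 ± 0.17, with 0.27, 0.44 and 0.44 in the cadmium arrays and -0.31, 0.26 and 0 in the PBS arrays. The lowest cadmium array lay just above the highest PBS array. In complex I, 22 of 31 were above 0, with a median of 0.09. By array the complex I median was -0.03, 0.08 and 0.09 after cadmium, inside the range of the PBS arrays at -0.14, 0.13 and 0. The accessory subunit genes Ndufa6, at 0.41 ± 0.19, and Ndufb9, at 0.34 ± 0.18, were highest, and Ndufaf1 was lowest, followed by the assembly gene Ndufaf4 at -0.36.

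Complex III was divided. Its median in 12 h cadmium mesoderm was 0.03, while Uqcc3, Uqcrc2 and Uqcrb were at -0.65 or below while Uqcr11 and Uqcrh, both small subunits, were at 0.30 and 0.26. The second core subunit gene, Uqcrc1, was at 0.19, opposite in sign to Uqcrc2. Of the coenzyme Q genes Coq3 stood alone: the other 5 ran from -0.13 (Coq4) to 0.20 (Coq9).

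The mitochondrial ribosome was the 1 class with a median below 0 in that comparison. By array its median was -0.09, -0.05 and -0.04 after cadmium and -0.15, 0.13 and 0 in the PBS arrays, so the cadmium arrays lay inside the vehicle range. In 12 h cadmium mesoderm 26 of its 61 genes were above 0, with a median of -0.02, and its 4 lowest, Mrps2, Mrps31, Mrps10 and Mrps25, are all proteins of the small subunit. Mrps5, of the small subunit too, was the highest at 0.31 ± 0.12. Complex II had 2 of 4 genes above 0 in mesoderm. All 4 were below 0 in 12 h cadmium ectoderm, from -0.46 for the flavoprotein Sdha to -0.14 for the iron-sulfur subunit Sdhb, with SEs of 0.22 to 0.39. There the complex II median by array was -0.31, -0.60 and -0.08 after cadmium and -0.40, 0.31 and 0 in the PBS arrays, which overlap.

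**Figure D4:**
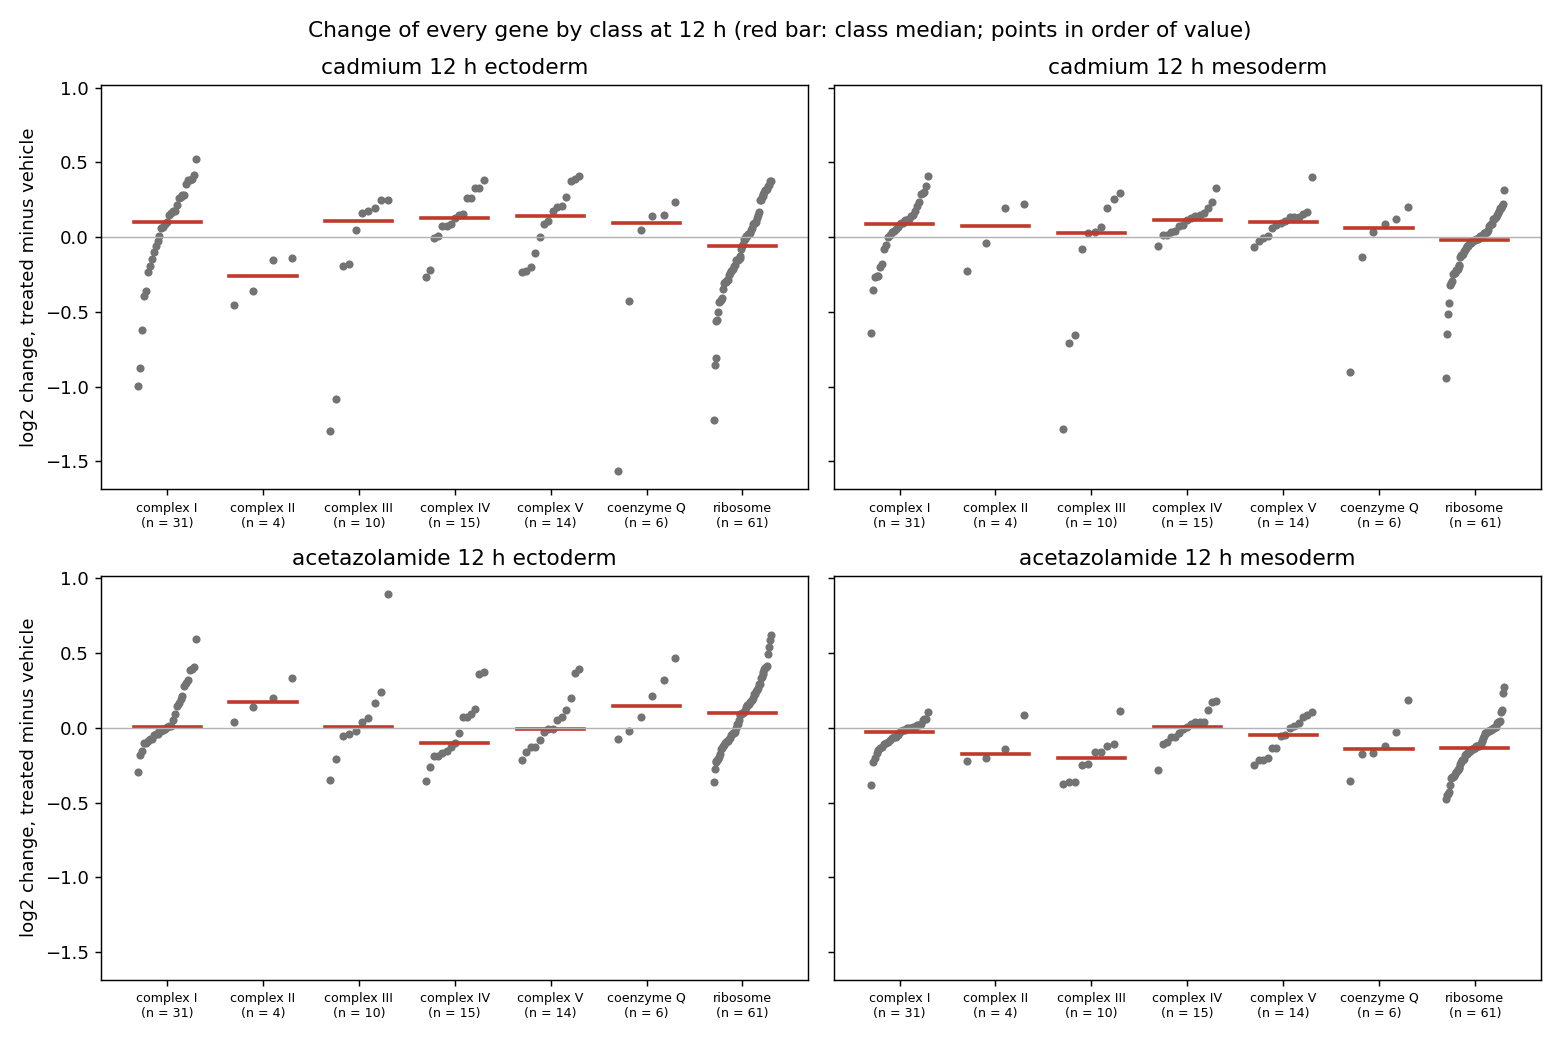
Log2 change, treated minus vehicle (y axis), of every gene by class (x axis, with the number of genes) in the 4 comparisons at 12 h. Each grey point is a gene, in order of value within its class, and each red bar is the class median: complex IV lies mostly above 0 in 12 h cadmium mesoderm, and the ribosome median is -0.13 in 12 h acetazolamide mesoderm.

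In some arrays the family median stood apart while the median over all genes stayed near 0, and some other mitochondrial lists were low in the same comparisons. The second 12 h cadmium ectoderm array had a median of -0.34 over the 141 genes and -0.53 over the ribosome, beside -0.03 for complex IV and -0.02 for all genes. The second 12 h acetazolamide mesoderm array had -0.36, -0.43, 0.09 and 0.02. In both, the control probe sets at the 3' end of Gapdh stood higher against those at its 5' end than in the vehicle arrays, by 1.80 and 1.72 in log2, above the 0.80 of the next array. That difference is a usual sign of RNA quality, and its part in the low medians was not tested. The same difference for beta-actin was 0.08 and 0.39 in these 2 arrays, inside the range of the others. By beta-actin other arrays stood out, all of them at 3 h in mesoderm of the acetazolamide arm. The difference was 1.30 in oil array 1 and 1.55 and 1.10 in acetazolamide arrays 1 and 2. Their family medians were 0.07, 0.19 and 0.02, and a part of RNA quality in them was not tested. PBS arrays 1 and 2 at 12 h in ectoderm had family medians of -0.24 and 0.21, with Gapdh differences of -0.33 and 0.42. For lists described below, the lowest treated array median is given for 12 h cadmium ectoderm and 12 h acetazolamide mesoderm. It was -0.31 and -0.40 for import, chaperone and protease genes. For mitochondrial DNA, transcription and translation factors it was -0.26 and -0.16. It was -0.06 and -0.0035 for carriers and channels, and -0.06 and -0.05 for cytosolic ribosomal proteins.

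**Figure D5:**
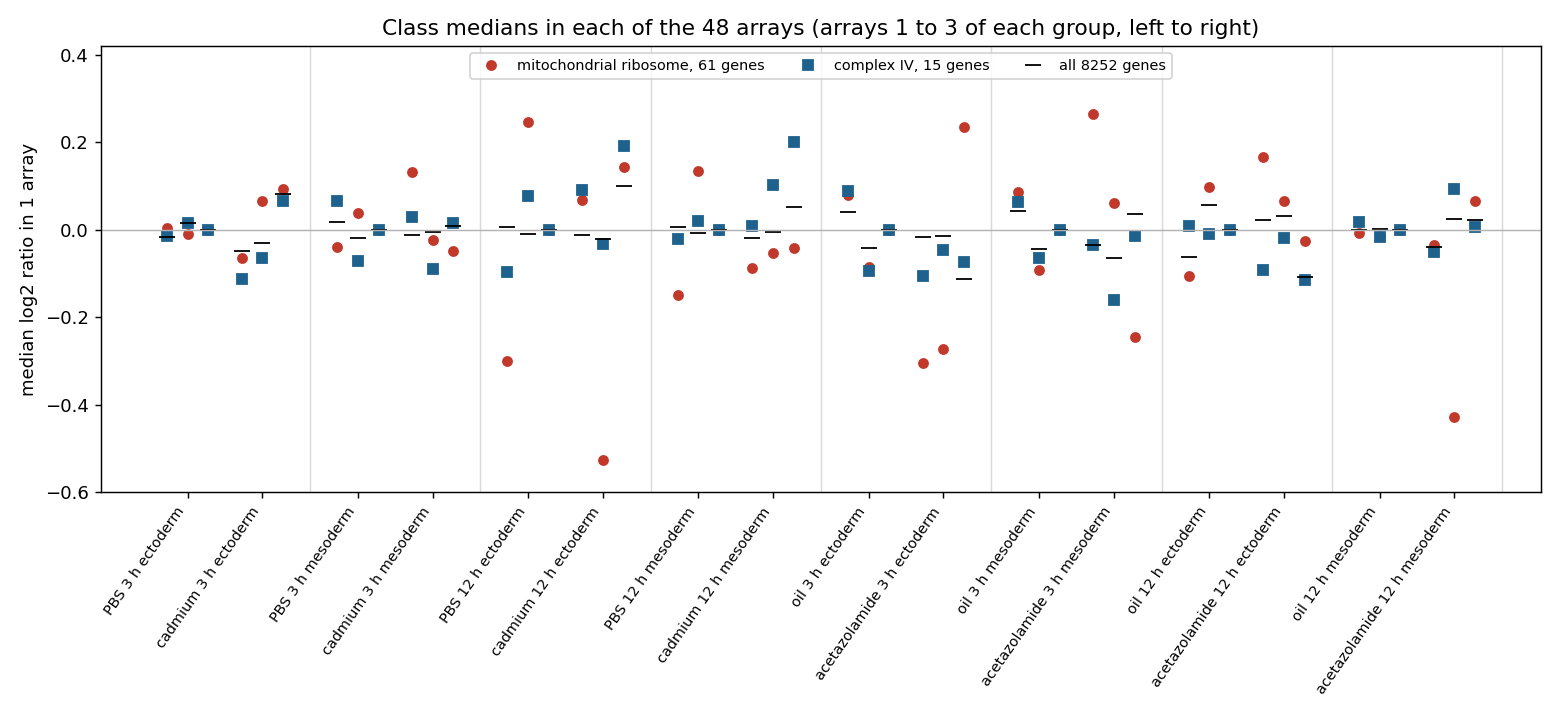
Median log2 ratio (y axis) in each of the 48 arrays, by group (x axis), of the 61 ribosomal genes (red circles), the 15 complex IV genes (blue squares) and all 8252 genes (black bars). The ribosome median falls to -0.53 and -0.43 in the second 12 h cadmium ectoderm and second 12 h acetazolamide mesoderm arrays, where complex IV stays at -0.03 and 0.09.

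These arrays bear on the family medians. In 12 h acetazolamide mesoderm the family's median change was -0.10, with 38 of 141 genes above 0, beside 0.01 and 53.3% for all genes. Without the second acetazolamide array it was 0.01 with 77 of 141 above 0. No member was called, nor any gene (0%), and the lowest 3, Mrps11, Mrpl11 and Mrpl20, read -1.16, -0.95 and -1.35 in that array. The family median in 12 h cadmium ectoderm was 0.05, and it changed sign with the arrays used, from 0.14 without the second cadmium array to -0.07 without the first. Without the second cadmium array the 6 genes kept changes of -1.58 to -0.95 and ranks 1 to 6 from the lowest. In that fit 1 of the 141, Mrps2, was called, with no count over all genes given. Without the first cadmium array the 6 genes had changes of -1.59 to -0.87 and ranks between 1 and 8, and none of them was called.

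In 3 h acetazolamide ectoderm the family's median change was -0.11, with 36 of 141 genes above 0, beside -0.04 and 38.9% for all genes. Arrays 1 and 2 had family medians of -0.28 and -0.20 and array 3 had 0.18, and without array 3 the median change was -0.27 with 13 of 141 above 0. Sdhd, a membrane anchor of complex II, had -0.63, -0.40 and -0.41 against 0.10, -0.11 and 0 in the oil arrays, a change of -0.48 ± 0.15 with no overlap. Coq9, a lipid-binding accessory protein of coenzyme Q synthesis, was at -0.52 ± 0.26. Of the 141 genes 0 were called, beside 0.0242% of all genes. Without array 3 there were 2, Mrpl27 and Sdhb, with no count over all genes given for that fit.

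Array 3 of that group was high for several genes that arrays 1 and 2 were not. Ndufs1 read -0.48, -0.24 and 1.47, Uqcrc2 -0.29, 0.02 and 1.35, and Coq3 -0.66, -0.18 and 1.25. Ndufs1 and Coq3 were highest in array 3 also in 3 h acetazolamide mesoderm, at 1.01 and 1.03, and in 12 h acetazolamide ectoderm, at 1.65 and 1.09. Array 3 appears to have its own vehicle array as denominator, an inference from the values, and what moved these genes was not tested.

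In 3 h acetazolamide mesoderm the family median was 0.00, with 72 of 141 above 0, and 0 genes were called beside 0.0364% of all genes. This comparison holds the arrays with the high beta-actin differences. Coq3 was highest at 0.48 ± 0.25 and Mrpl54, of the large ribosomal subunit, lowest at -0.52 ± 0.22. In 12 h acetazolamide ectoderm it was 0.05, with the ribosome at 0.10 and complex IV at -0.10. Mrpl45, a large subunit protein at the inner membrane, had 0.43, 0.82 and 0.54 against -0.38, 0.30 and 0, a change of 0.62 ± 0.22. Cox5a, a structural subunit of complex IV, had -0.35, -0.32 and -0.12 against 0.00, 0.00 and 0, a change of -0.26 ± 0.11.

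None of the 141 was called in the differences between 12 h and 3 h of acetazolamide (0% of all genes in both tissues), nor in those between tissues for cadmium at 3 h or for acetazolamide at either time (0% in each). The share of genes whose 3 treated arrays all lay beyond all 3 vehicle arrays was close to that of all genes. In 12 h cadmium mesoderm it was 20.6% of the family (29 genes, 18 of them lower) and 19.3% of all genes (1594 genes, 785 of them lower). In 12 h cadmium ectoderm it was 8.51% and 10%. At 3 h after cadmium it was 7.8% and 9.39% in ectoderm and 10.6% and 9.63% in mesoderm. After acetazolamide it was 14.2% and 13.9% in 3 h ectoderm, 12.1% and 15.9% in 3 h mesoderm, 20.6% and 16.8% in 12 h ectoderm, and 3.55% and 5.91% in 12 h mesoderm.

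Shorter genes stood higher than longer ones in 12 h cadmium ectoderm. Of 4 groups by genomic span in RefSeq, the 36 shortest genes, 0.828 to 3.83 kb, had a median change of 0.16 with 28 above 0, and the 35 longest, from 13.0 kb, had -0.15 with 13 above 0. Spearman's rho of change with span was -0.32 over the 141 genes and -0.18 over 8236 genes, and in 12 h cadmium mesoderm -0.10 and -0.15. In 12 h acetazolamide ectoderm it was 0.27 and 0.23. Uqcc3, the gene that fell most in mesoderm, spans 0.92 kb, and Coq3, Uqcrc2 and Mrps31 span 32.5, 24.3 and 19.2 kb.

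Other mitochondrial genes outside the symbol rule gave 8 calls in 12 h cadmium mesoderm, where 2.28% of all genes were called. The lists were chosen with earlier results of these data known, so the calls are a description. Among 14 measured regulators of mitochondrial gene expression 2 fell, Pprc1, a coactivator of NRF1, by 0.69 ± 0.15 and Gabpb1, a subunit of GABP, by 0.45 ± 0.10, and the median of the list was -0.04. Of 27 import, chaperone and protease genes 2 fell, the import chaperone gene Timm9 by 0.58 ± 0.14 and the chaperonin gene Hspd1 by 0.24 ± 0.07, with a list median of -0.11. Of 19 factors for mitochondrial DNA, transcription and translation Eral1, which helps assemble the small ribosomal subunit, fell by 0.46 ± 0.11.

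Of 20 citric acid cycle and pyruvate dehydrogenase genes, Idh2 rose by 0.41 ± 0.11 and Dlat, a core enzyme of pyruvate dehydrogenase, fell by 0.33 ± 0.07. Of 18 carriers and channels of the mitochondrial membranes, Tspo rose by 0.46 ± 0.09. None of 20 electron carriers and assembly factors outside the rule was called, and none of 35 cytosolic ribosomal protein genes, 27 of which were above 0 with a median of 0.06. No gene of these lists was called in the other 7 comparisons.

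Markers of other cell types were also compared. In 12 h cadmium mesoderm 10 of 10 endothelial markers were above 0, with a median of 0.18. The list median ranged from 0.12 to 0.42 over the cadmium arrays. Tie1 (0.63 ± 0.12) and Eng (0.58 ± 0.16) were called, in a comparison where 2.28% of all genes were. Of 10 markers of primitive red blood cells 9 were above 0, with a median of 0.14 and a range of -0.0025 to 0.30 over the arrays, and Alas2 rose by 0.53 ± 0.12. Of 14 limb mesoderm markers 6 were above 0 (median -0.09, range -0.13 to 0.05), of 13 ectoderm markers 8 (0.08, -0.03 to 0.15), of 11 muscle markers 8 (0.04, -0.05 to 0.18) and of 8 macrophage markers 6 (0.05, -0.001 to 0.10). None of these 4 lists held a call, and the ratios cannot show whether a marker was at 0. Of the same lists in 12 h cadmium ectoderm, 10 of 10 endothelial markers were above 0 (median 0.16, range -0.0064 to 0.20), 9 of 10 red blood cell markers (0.21, -0.05 to 0.45), 10 of 11 muscle markers (0.13, 0.01 to 0.21), 10 of 14 limb mesoderm markers (0.10, 0.02 to 0.19), 7 of 13 ectoderm markers (0.10, -0.36 to 0.18) and 5 of 8 macrophage markers (0.03, -0.04 to 0.14), with no call. Their part in the family's changes was not tested.

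Among the 33 genes with more than 1 probe set, the probe sets of a gene differed by a median of 0.14 in log2 over 264 gene and comparison pairs. The spread passed 0.5 in 12 pairs of 8 genes, Mrpl50, Mrpl46, Ndufaf1, Ndufaf4, Mrpl2, Atp5d, Mrps18a and Ndufb2. The probe sets of Ndufaf4 read -0.73 and 0.02 in 12 h cadmium mesoderm, so its mean of -0.36 describes neither. Those of Mrpl50 read between -0.33 and 0.46 in 3 h acetazolamide ectoderm. A further 15 probe sets name several genes of which at least 1 fits the symbol rule, and these were left out.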

How the data were processed

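Per the labels' protocols, RNA of ectoderm or mesoderm was kept at a 28S to 18S ratio of 1.3 to 2, labelled with biotin in 1 cycle and hybridised to Affymetrix arrays, 3 in each of 16 groups. The deposited values are linear ratios per probe set with vehicle as denominator, made by the authors. Vehicle arrays 1 and 2 sum to 2 and vehicle array 3 equals 1 for every probe set. That treated arrays 1 and 2 share the denominator of vehicle arrays 1 and 2, and array 3 has its own, is an inference from this. The software behind the ratios is not given in the sources used here. They hold no level or intensity, so no filter on dim probe sets was possible. The number of arrays limits the precision.

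Log2 ratios were averaged over the probe sets that name 1 gene alone, by the platform's annotation. limma 3.58.1 in R 4.3.3 fitted 8252 genes in 1 model with 16 denominator means and 8 agent effects, 24 residual degrees of freedom, weights by the spread of each comparison, moderated variances and Benjamini-Hochberg adjustment at 0.05. It also fitted 12 differences between times, tissues and agents. The procedure was tested on simulated data. The family and all gene lists were chosen with earlier results of these data known. Genes were named where they passed a test, were among the 3 highest or lowest of a comparison, had the highest or lowest mean of their class, had probe sets differing by over 0.5, or are tissue forms. Genes of the other lists were named where they passed. Further family genes in the text, Coq4, Cox5a, Mrpl27, Mrps10, Mrps5, Ndufs4, Sdhb, Uqcr11 and Uqcrb, were chosen after their values were seen. Promoters came from RefSeq, build GRCm38.p6. Alternatives were the weights, the denominator block, the array number as a block, only the 6 arrays of a comparison, centring, an offset of 0.1, single probe sets, and each array left out.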

Additional observations from a re-analysis of the deposited data

Results flagged for a closer look

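Among the family, 2 genes changed differently at 12 h and 3 h after cadmium in mesoderm by the test of the difference itself. For Uqcc3 the 12 h minus 3 h difference was -1.27 ± 0.27 (95% interval -1.82 to -0.71; adjusted p = 0.0278, limma). For Mrps2 it was -1.04 ± 0.21 (-1.48 to -0.60; adjusted p = 0.0251, limma). Both genes were below all PBS arrays in 3 of 3 cadmium arrays at 12 h. Such a separation, in either direction, held for 19.3% of all genes there. In 18 alternative fits Uqcc3 had an adjusted p of 0.00504 to 0.827 and Mrps2 of 0.00413 to 0.599, and each passed in 7. The contrast was in view when the family was chosen, so these values are a description.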

How the results depend on the processing

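In 12 h cadmium mesoderm 6 family genes were called, beside 188 of all genes. Without weights 2 were, beside 22 of all genes, and without weights and denominator block together also 2. With only the 6 arrays of the comparison 0 were, and 0 of all genes. That fit had 25 family genes and 989 of all genes at an unadjusted p under 0.05 in limma. In 12 h cadmium ectoderm, where 0 were called, it was 7 without weights, beside 89 of all genes. It was 7 without weights and denominator block together and 1 with each probe set on its own. The 2 calls among the differences became 7 without weights, 8 without both, 1 with arrays centred and 4 with single probe sets. The 7 without weights lay in the 12 h ectoderm difference between agents, where 297 of all genes were called. The 1 with arrays centred lay in the mesoderm difference between times after cadmium, where 20 of all genes were called. No counts over all genes are given for the fits without weights and denominator block together or with single probe sets. Their family counts therefore cannot be compared with those of the whole array. The cause of these changes was not tested.

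Array numbers were not taken to pair the samples. As a check, the first array minus the second was correlated over genes between the treated and vehicle groups. The check cannot decide whether arrays were paired, since the third array of each group does not enter it. Over all genes the correlation of these differences was above 0.1 in 3 of 8 comparisons. It was highest in 12 h cadmium mesoderm, at 0.65 over all genes and 0.51 over the family, followed by 0.55 in 3 h acetazolamide mesoderm and 0.22 in 3 h acetazolamide ectoderm. With the replicate block, 7 family genes were called in 12 h cadmium mesoderm, the 6 and Mrps10, beside 230 of all genes. In the differences 0 of the family were called with that block, with no count over all genes given.

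With each array left out in turn, calls ran from 4 (without PBS or cadmium array 3) to 9 (without cadmium array 1) in 12 h cadmium mesoderm, 0 to 7 in 12 h cadmium ectoderm (7 without PBS array 1), 0 to 2 in 3 h acetazolamide ectoderm (2 without oil or acetazolamide array 3), 0 to 1 in 3 h acetazolamide mesoderm (1 without oil array 1), 0 to 3 in 12 h acetazolamide ectoderm (3 without oil array 2) and 0 to 13 in the differences (13 without PBS 12 h ectoderm array 1, 0 without PBS 3 h mesoderm array 3 among others). Uqcc3, Mrps2 and Ndufaf1 passed in every such fit of 12 h cadmium mesoderm, of which those without PBS array 3 and without cadmium array 3 are the same fit. The family median ran from -0.017 to 0.094 there. No counts over all genes are given for the fits with an array left out, so their calls cannot be compared with those of the whole array. Without array 3, signs turned for Mrps14 at 3 h after cadmium in ectoderm (range -0.38 to 0.023) and, at 3 h after acetazolamide in ectoderm, for Ndufa5 (-0.052 to 0.59), Uqcrc2 (-0.13 to 0.59) and Atp5md (-0.19 to 0.57).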
